A study of Mus musculus with 6 samples.

Results

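Edn1 and Mmp9, the genes of endothelin 1 and matrix metalloproteinase 9, were examined in RNA-seq of colonic tissue from WT and Pum2-/- mice. They are 2 of the 68 genes in the deposited table, and they were chosen by their lower values in the Pum2-/- libraries of this same table. Their differences between the genotypes are therefore given as a description, with no test. The 3 WT and 3 Pum2-/- libraries came from untreated mice on the FVB background, which received no dextran sulfate sodium, the agent that the study used to induce colitis. The knockout was global and not limited to a cell type. The study's methods describe the mice of its colitis experiment, untreated controls included, as age-matched young adult males, and do not say whether the sequenced mice were among them. The labels do not say whether each library is a separate animal, so the spread between libraries may be partly technical. Values are the normalized expression values of the authors, in units whose scaling is not stated, and differences are on the log2(value + 1) scale as Pum2-/- minus WT.

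Endothelin 1 is a secreted peptide and one of the strongest known constrictors of blood vessels. It is cut from a longer precursor, the last step being made by endothelin converting enzyme, and acts on the receptors Ednra and Ednrb of smooth muscle and endothelium. Endothelial cells are its main source, and epithelial cells and macrophages can make it when stimulated. Matrix metalloproteinase 9, or gelatinase B, is secreted as an inactive proenzyme, degrades denatured collagen and the type IV collagen of basement membranes, and is held in check by the tissue inhibitor Timp1. Neutrophils store it in granules, macrophages and eosinophils also release it, and both genes are known as responders to inflammatory cytokines.

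The targeted gene checked the labels. Pum2, an RNA-binding protein that recognises a short element in the 3′ untranslated region of its target transcripts, had normalized values of 17.8, 16.1 and 16.5 in WT replicates 1, 2 and 3 against 2.94, 2.68 and 1.45 in the knockout replicates. The genotypes were far apart, with a 5.50-fold step from the highest Pum2-/- value to the lowest WT value. A low Pum2 value above 0 remained in every Pum2-/- library. In replicates 1 and 2 it amounted to few reads on the steps described below. Few low values of replicate 3 lay near whole multiples, so remaining Pum2 expression is not read from these values. The depth of the libraries is not known, since the table covers only genes that the authors had selected as different between the genotypes. None of the 10 colon epithelium markers is among the listed genes, so the labelled tissue could not be checked against them.

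Edn1 (ENSMUSG00000021367) lies on the plus strand of chromosome 13, chr13:42301476-42307990 in GRCm38, with 5 exons and a transcript of 2139 bases. Its normalized value was 25.2, 46.4 and 50.6 in WT replicates 1, 2 and 3, and 5.84, 16.2 and 11.9 in Pum2-/- replicates 1, 2 and 3. All Pum2-/- values lay below all WT values, and replicate 1 was the lowest of its genotype in both. The means were 40.7 ± 13.6 (SD, n = 3) in WT and 11.3 ± 5.19 (SD, n = 3) in Pum2-/- mice, so the WT mean was 3.61 times the Pum2-/- mean. The mean difference in log2(value + 1) was -1.80 (standard error 0.499), which is 2.95 times the pooled SD of 0.611 within the genotypes. The nearest libraries of the 2 genotypes, WT replicate 1 and Pum2-/- replicate 2, differed by a factor of 1.56. Scaling the libraries to equal medians of the listed genes gave an Edn1 difference of -2.78. Those genes were selected as different between the genotypes, so this scaling carries their difference and does not check the normalization.

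An antisense gene, Gm47118, overlaps Edn1 and shares 35 exonic bases with it. Whether the counting used strand is not given in the sources used here, so reads of these bases cannot be assigned to either gene.

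Mmp9 (ENSMUSG00000017737) lies on the plus strand of chromosome 2, chr2:164940780-164955850 in GRCm38, and its longest coding transcript has 13 exons and 3175 bases. No annotated gene overlaps it. Its normalized value was 18.8, 13.1 and 7.25 in WT replicates 1, 2 and 3, and 4.91, 1.75 and 0.133 in Pum2-/- replicates 1, 2 and 3. The genotypes again did not overlap, and here replicate 1 was the highest of its genotype and replicate 3 the lowest. The means were 13.1 ± 5.79 (SD, n = 3) in WT and 2.26 ± 2.43 (SD, n = 3) in Pum2-/- mice, so the WT mean was 5.77 times the Pum2-/- mean. The mean difference in log2(value + 1) was -2.32 (standard error 0.781), or 2.43 times the pooled SD of 0.956. The nearest libraries, WT replicate 3 and Pum2-/- replicate 1, differed by a factor of 1.48. Scaled to equal medians as for Edn1, and with the same limit, the Mmp9 difference was -3.10.

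**Figure D1:**
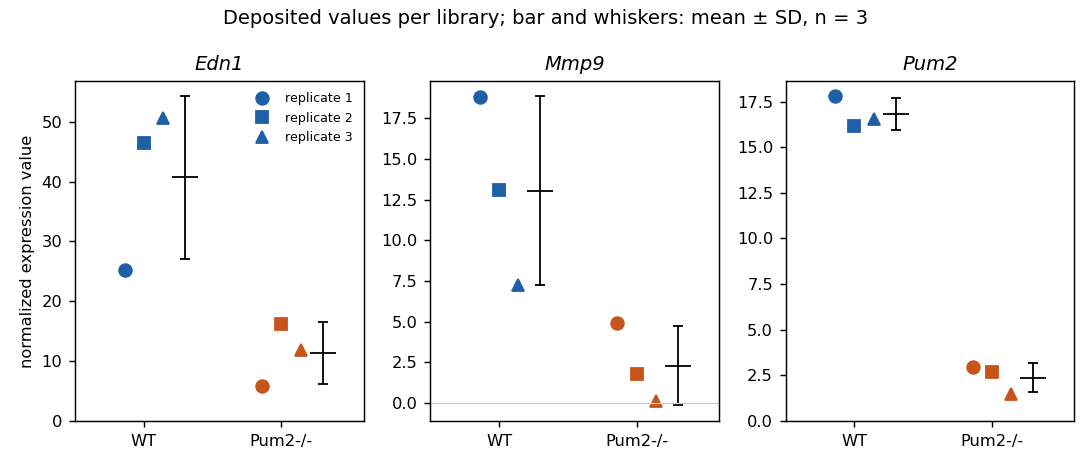
Normalized expression value of Edn1, Mmp9 and Pum2 (y axis, a separate scale in each panel) in WT (blue) and Pum2-/- (orange) libraries, with 1 point per library, the marker shape giving the replicate and the bar the mean ± SD of 3. The genotypes do not overlap in any panel. The spread in WT is wide for Edn1 and Mmp9, with values from 25.2 to 50.6 and from 7.25 to 18.8, and narrow for Pum2. The SD of Pum2 was 5.16% of the mean in WT and 33.7% in Pum2-/- libraries.

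The low values of Mmp9 bear on how firmly its difference can be read. In WT replicate 1, WT replicate 2 and Pum2-/- replicate 1, between 92.9% and 100% of the listed values under 10 lay within 0.08 of a step of whole multiples of a step of 0.928 to 1.001, so that 1 unit was close to 1 read. On that footing Mmp9 stood at 20.3, 13.1 and 5.04 steps in these 3 libraries. Edn1 stood at 27.1, 46.4 and 5.99 steps. In Pum2-/- replicate 2, where 83.3% of the low values lay near whole multiples, Mmp9 stood at 1.97 steps and Edn1 at 18.3. The share was 70% in WT replicate 3 and 9.52% in Pum2-/- replicate 3, so no steps are given for these libraries. Mmp9 thus rested on few reads in both Pum2-/- replicates 1 and 2, and Edn1 in replicate 1, and no counting interval is given because reads were not recovered in all libraries.

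The Mmp9 value of 0.133 in Pum2-/- replicate 3 was under the size of a single read. In that library 15 listed genes had a value above 0 and under 0.3, and the next value up was 1.27. WT replicate 2 had 2 values in this range, and the other 4 libraries had none. Across these 15 genes the value in Pum2-/- replicate 3 followed the summed value in Pum2-/- replicates 1 and 2, with the same order in both (Spearman's rho 1 and Pearson's r 0.995 across genes, which are not independent replicates). Mmp9 held the eleventh place in both orders, with a summed value of 6.66. Defa30, next above it with a sum of 6.89, was at 0.134. The 3 listed genes at 0 in Pum2-/- replicate 3 were at 0 in both other Pum2-/- libraries as well. These values went with the other libraries of the same genotype, so the Mmp9 value of this library is not an independent measurement. Leaving out Pum2-/- replicate 3, the Mmp9 difference was -1.71, and with its value set to 0 it was -2.38. A pseudocount of 0.1 in place of 1 gave -3.24. The Edn1 value of Pum2-/- replicate 3, 11.9, was outside this range. Few low values of that library lay near whole multiples, so whether the processing also altered its Edn1 value is not known. Without that library the Edn1 difference was -1.89.

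**Figure D2:**
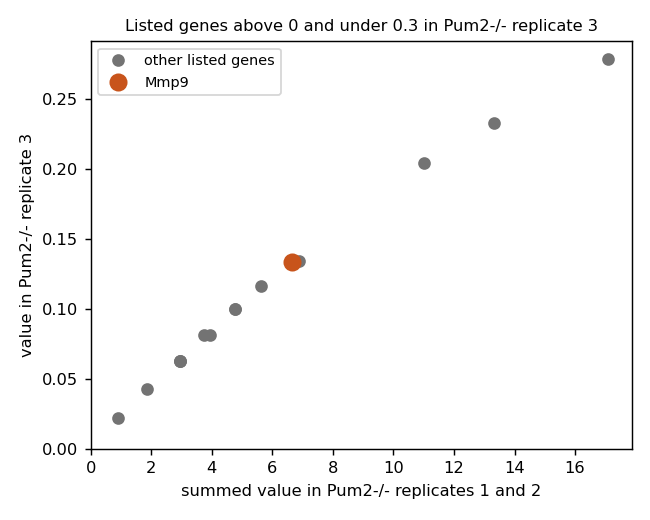
Value in Pum2-/- replicate 3 (y axis) against the summed value in Pum2-/- replicates 1 and 2 (x axis) for the 15 listed genes above 0 and under 0.3 in replicate 3, with 1 point per gene (3 genes share 1 point and another 2 share 1) and Mmp9 in orange. The points follow a single curve, on which Mmp9 lies at 6.66 and 0.133.

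Edn1 and Mmp9 were 2 of 29 listed genes whose Pum2-/- values all lay below their WT values, which is 42.6% of the 68 genes. Since the table holds genes selected for their difference and both members were picked as lower, nothing is read from that share. Among the 34 listed genes with a lower mean in Pum2-/- mice, differences ran from -5.26 to -1.80 with a median of -2.69, and Edn1 had the smallest of them on this scale. Spink1, a trypsin inhibitor of the mucosa, stood next to it at -1.83. The place depends on the scale, since by the ratio of means Spink1 (3.48) and Clca4a (3.56) had smaller differences than Edn1 (3.61), which was at place 3 from the smallest. Mmp9 was at place 26 of 34 from the largest difference. Measured against the spread within genotypes, Edn1 was closer to the middle, at place 15, and Mmp9 at place 23, beside a median of 2.84 pooled SDs for the 34 genes.

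**Figure D3:**
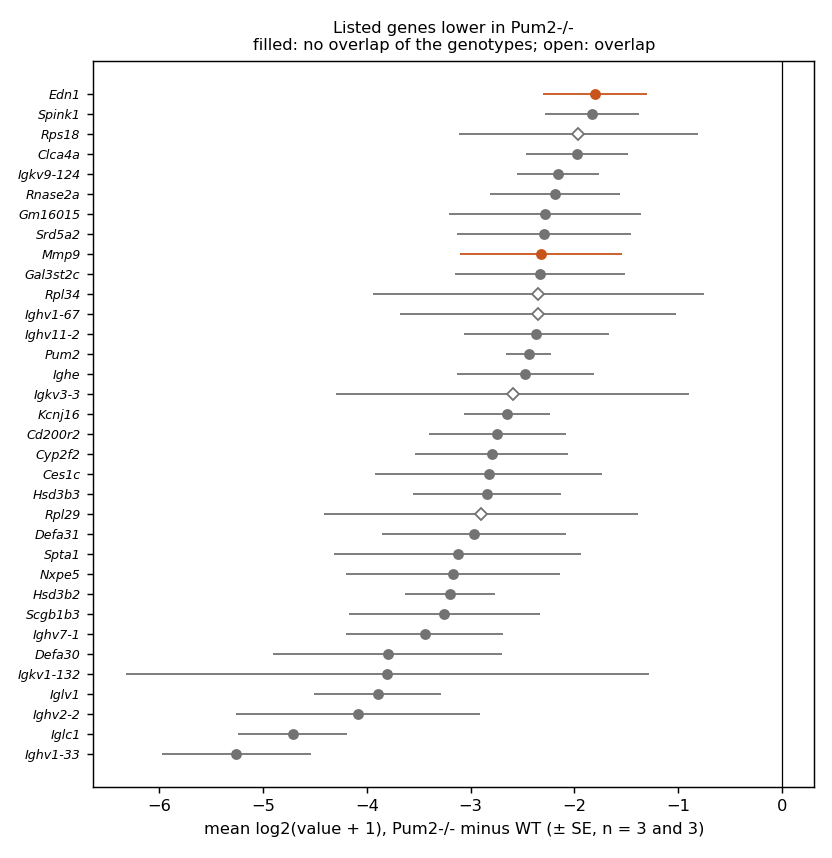
Difference in mean log2(value + 1), Pum2-/- minus WT (x axis, whiskers 1 standard error, 3 libraries per genotype), for the 34 listed genes with a lower mean in Pum2-/- mice (y axis, ordered by size), with Edn1 and Mmp9 in orange, filled circles for genes whose genotypes do not overlap and open diamonds for those that overlap. Edn1 is at the small end with -1.80 and Mmp9 lies at -2.32, and the range reaches -5.26.

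Within the genotypes the 2 genes did not follow each other. Among WT libraries their orders were the reverse of each other, with Edn1 lowest and Mmp9 highest in replicate 1, and Edn1 highest and Mmp9 lowest in replicate 3. Among Pum2-/- libraries replicate 1 again had the lowest Edn1 and the highest Mmp9, but Edn1 was highest in replicate 2 and Mmp9 lowest in replicate 3, so the reversal was partial. Deviations from the genotype means, in log2(value + 1), were -0.61 and -0.75 for Edn1 in the WT and Pum2-/- replicate 1 libraries, and 0.58 and 1.16 for Mmp9. Over the 6 libraries the deviations had a Pearson's r of -0.695, which rests on 3 libraries per genotype, includes the Mmp9 value of 0.133 described above and is given as a description. Among the 561 pairs of the 34 lower genes, 22 had a lower r of deviations, and the median was 0.244. Over the 6 libraries with the genotype difference kept in, the r of Edn1 and Mmp9 was 0.538 against a median of 0.811 for the same pairs. In likeness to Edn1, Mmp9 held place 29 of the 67 other listed genes.

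**Figure D4:**
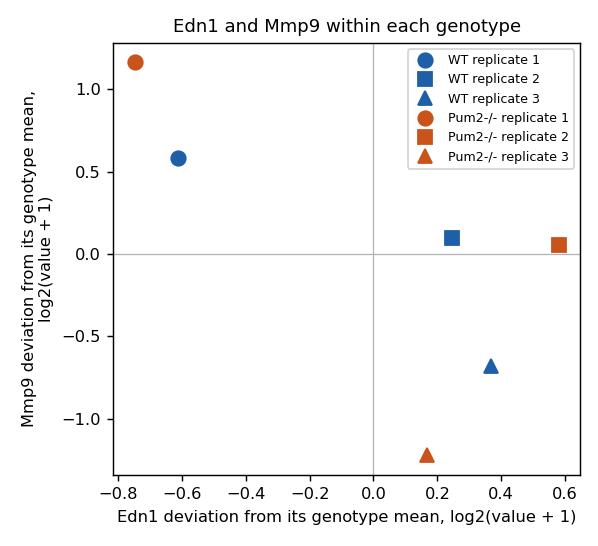
Deviation of Mmp9 (y axis) against that of Edn1 (x axis) from the mean of the own genotype in log2(value + 1), with 1 point per library, WT in blue and Pum2-/- in orange. Both replicate 1 libraries lie at the upper left, with Edn1 at -0.61 and -0.75 and Mmp9 at 0.58 and 1.16, and both replicate 3 libraries lie at the lower right.

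The listed genes whose pattern over the 6 libraries was nearest to that of Edn1, by Pearson's r of log2(value + 1), were Cd200r2, Hsd3b3, Kcnj16, Hsd3b2 and Iglc1. Genes of this table share the genotype difference, which alone gives a high r. Cd200r2, a member of the CD200 receptor family of leukocytes, had the highest r with Edn1, 0.961, and the r of its deviations was 0.823. Its values were 2.72, 11.1 and 12.0 in WT and 0, 0.912 and 0.0218 in Pum2-/- libraries, so the lowest WT value was again in replicate 1. Cd200r2 is among the 15 genes under 0.3 in Pum2-/- replicate 3, so its value there is not an independent measurement and both r values include it. Hsd3b3 (r = 0.912) and Hsd3b2 (r = 0.895) encode steroid dehydrogenases of near-identical sequence, between which reads may be divided in ways that depend on the counting. Kcnj16 (r = 0.910) encodes an inwardly rectifying potassium channel. Kcnj16 and Hsd3b2 were at 0 in all Pum2-/- libraries. Iglc1 (r = 0.875) is a constant gene of the immunoglobulin lambda light chain, and the r of its deviations with Edn1 was 0.200.

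The genes nearest to Mmp9 were Ighe, Rnase2a, Clca4a, Nxpe5 and Gm16015. Ighe, the constant gene of the immunoglobulin E heavy chain, had an r of 0.984 with Mmp9, and an r of deviations of 0.957. It stood at 13.1, 12.1 and 8.21 in WT and at 3.93, 0.847 and 0.0996 in Pum2-/- libraries, in the same order of libraries as Mmp9 within both genotypes. Rnase2a, of the eosinophil-associated ribonuclease family, had an r of 0.971, with 14.1, 10.1 and 8.21 in WT and 2.94, 2.69 and 0.116 in Pum2-/- libraries. Ighe, Rnase2a and Gm16015 were, like Mmp9, among the 15 genes under 0.3 in Pum2-/- replicate 3, so their values in that library are not independent measurements either. In Pum2-/- replicates 1 and 2, Ighe and Rnase2a rested on few reads, as Mmp9 did. The order of these libraries for Rnase2a, 2.94 and 2.69, is therefore not read. Clca4a, of the calcium-activated chloride channel regulator family, was not among them. It stood at 164, 176 and 147 in WT and at 76.3, 37.3 and 23.1 in Pum2-/- libraries, with an r of 0.970 with Mmp9. Nxpe5 (r = 0.931) was at 47.7, 71.6 and 50.5 in WT and at 24.5, 2.49 and 1.81 in Pum2-/- libraries. Gm16015 had an r of 0.921.

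**Figure D5:**
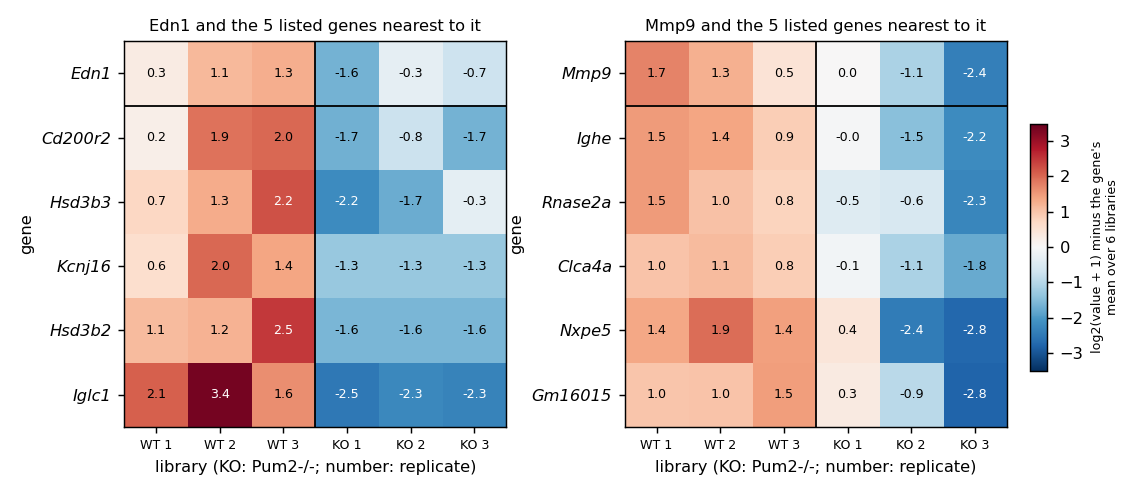
Log2(value + 1) minus the mean of the gene over the 6 libraries (colour and number in each cell) for Edn1 (left) and Mmp9 (right), each in the top row above the 5 listed genes with the highest Pearson's r, with libraries as columns. In the left panel WT replicate 1 is the lowest WT library of Edn1, Cd200r2, Hsd3b3, Kcnj16 and Hsd3b2. In the right panel Pum2-/- replicate 1 is the highest Pum2-/- library of Mmp9, Ighe, Rnase2a, Clca4a, Nxpe5 and Gm16015. For Rnase2a this rests on 2.94 against 2.69 in replicate 2, both of few reads.

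The partners of both genes were outside the table. Of 79 other genes of the endothelin system, the matrix metalloproteinases with their inhibitors and substrates, vascular tone, leukocyte adhesion and the cytokine signals known to induce Edn1 and Mmp9, 0 were listed. Receptors, converting enzymes, Timp1 and the other metalloproteinases were therefore not analysed here. In bulk tissue, fewer cells of a type and less RNA per cell cannot be told apart. The markers chosen for endothelium, neutrophils, macrophages, plasma and B cells, and smooth muscle and fibroblasts were likewise outside the table and not analysed here. Such cells could be sources of either transcript. Other listed genes that they can express, immunoglobulin genes among them, were not used as markers.

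Of 10 markers of T and NK cells, Nkg7, Gzma and Gzmb were listed, and all 3 had every Pum2-/- value above every WT value. Of the 68 listed genes 30 did so, or 44.1%, among 34 with a higher mean, so that nothing is read from the 3. Their summed value was 25.1, 25.3 and 83.4 in WT and 152, 238 and 291 in Pum2-/- libraries. Gzma, the gene of the cytotoxic granule protease granzyme A, was at 4.59, 9.09 and 20.4 in WT and at 22.4, 55.2 and 112 in Pum2-/- libraries. This is the reverse of the order of Mmp9 within both genotypes. Its r with Mmp9 over the 6 libraries was -0.990, the lowest of the 67 other listed genes. Both the order and the r include the Mmp9 value of 0.133 in Pum2-/- replicate 3, which is not an independent measurement. Since Gzma was higher and Mmp9 lower in Pum2-/- libraries, the genotype difference alone gives a negative r. The part of the T and NK cell markers in the Mmp9 difference was not tested.

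Pumilio proteins bind transcripts that carry the element TGTANATA in DNA letters, so the 3′ untranslated regions of the longest coding transcripts in GENCODE M21 were searched for it on the transcript strand. The region of Edn1, 1111 bases long, held 0 matches, as did the region of Mmp9, 944 bases long. Among genes with a region of similar length, 22.3% for Edn1 and 18.0% for Mmp9 held at least 1 match. Of the 5 genes nearest to Edn1, 4 had such a region in the annotation, and 3 of these, Kcnj16, Hsd3b2 and Cd200r2, held the element. The regions of Kcnj16 and Hsd3b2, 2192 and 2251 bases long, are longer than those the shares above describe. Among the 50 listed genes with such a region, 4 held the element, and no test was made. Of the 5 genes nearest to Mmp9, 3 had such a region and 0 held the element. The sites of Kcnj16, Hsd3b2 and Cd200r2 are shown on the transcript strand, with the element in capitals, because they are the listed genes most like Edn1 that carry it, and the reference is the C57BL/6J genome and not FVB.
Kcnj16 first match, chr11:111026733-111026762, plus strand: gttgatttgatTGTAAATAagaggaataaa
Kcnj16 second match, chr11:111027320-111027349, plus strand: taatgcacatgTGTAGATAaatctttcgtt
Hsd3b2, chr3:98711117-98711146, minus strand: ttgtgattttcTGTAAATAaacaattatat
Cd200r2, chr16:44915794-44915823, plus strand: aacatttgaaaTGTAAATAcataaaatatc
A match describes letters only and shows no binding.

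A promoter sequence was at hand for Edn1 in RefSeq on GRCm38.p6. It ran from 250 bases before to 50 bases after the annotated start of transcription, and this window was searched on both strands. GATA factors and AP-1 are known activators of Edn1. The GATA motif AGATAA had 1 match, on the minus strand. The leftmost base of the match on the plus strand was at position 9, counted from 1 at the annotated start. Other start sites were not considered, and 11.4% of 27025 promoters held this motif. The site is shown with the motif in capitals on the plus strand, as the only element of the search found in Edn1.
Edn1, chr13:42301472-42301501, plus strand: tagagccgggtcTTATCTctggctgcacgt
The AP-1 motif TGANTCA and the NF-kB motif had 0 matches in the Edn1 window, and 7.93% and 8.18% of promoters held them. Only exact matches were sought, so 0 matches in this window do not show that Edn1 lacks AP-1 or NF-kB sites. The motifs searched do not overlap at the site shown.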

How the data were processed

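Colonic RNA of WT and Pum2-/- mice (Trizol) was sequenced from SMARTER libraries. The authors deposited 1 table of normalized signal per gene and library. Its aligner, counting tool, genome build and normalization are not given in the sources used here, so library depth is unknown. Further columns, which hold the fold change, p-value and adjusted p-value of the authors' comparison, were left aside. Of 69 rows, 2 shared an identifier and all values, which left 68 genes. Values under 1e-10 were taken as 0. Differences were means of log2(value + 1), Pum2-/- minus WT, with standard errors over 3 libraries per genotype. No test was run, because the members were chosen for this difference, and members, lists and motifs were chosen with earlier results of these data known. The genes named were Edn1, Mmp9, Pum2, the 5 genes with the highest Pearson's r to each member, and listed members of the gene lists. Spink1, Defa30 and Gm47118 were named after their values or positions were seen. Coordinates came from GENCODE M21 (GRCm38) by Ensembl identifier. Promoters came from RefSeq, with 1 of 2 members matched. Untranslated regions of similar length were within 20% of the member's. Calculations used Python 3.11.15, numpy 2.4.6, pandas 2.3.3 and matplotlib 3.10.9 and were checked on simulated data. The simulated falls were larger than those of Edn1 and Mmp9, so that check covers the calculation and not differences of their size. The alternatives were another pseudocount, the ratio of means, scaling by the median of listed genes, filters, a fit with the replicate block, and omission of each library in turn.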

Additional observations from a re-analysis of the deposited data

How the results depend on the processing

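Edn1 and Mmp9 were lower in Pum2-/- mice under all alternatives tried, 11 for Edn1 and 12 for Mmp9, with differences from -2.78 to -1.43 and from -3.24 to -1.71, and the genotypes did not overlap in any alternative where overlap applies. Both were chosen as lower, which fixes this direction. Scaling to equal medians over all listed genes moved the median gene by -0.909 and Edn1 to -2.78, and without immunoglobulin genes by -0.766 and Edn1 to -2.63, because the listed medians were higher in Pum2-/- libraries. The medians are of genes selected as different, so neither scaling checks the normalization. Pum2 was at -2.44 as reported, at -2.84 with a pseudocount of 0.1 and as the ratio of means, and at -3.30 and -3.16 under these 2 scalings, where Mmp9 was at -3.10 and -2.97. Leaving out each library in turn, Edn1 ranged from -2.11 to -1.43, Mmp9 from -2.91 to -1.71, Pum2 from -2.57 to -2.23 and the lower genes without overlap from 29 to 31. That count was 29 as reported, 17 with a mean value of at least 10, 20 without immunoglobulin genes and, in an alternative chosen after seeing the data, 15 without the genes under 0.3 in Pum2-/- replicate 3. Each of these 3 filters takes genes out of the 68, the second removing 17 immunoglobulin genes and the third 15 genes. The smaller counts are therefore not read as a change in the result. Setting Mmp9 of that library to 0 was also chosen after seeing the data. With the replicate number as a block, the differences were the same by construction, -1.80 for Edn1, -2.32 for Mmp9 and -2.44 for Pum2, and 31 genes were lower in all 3 pairs. Deviations of same-numbered libraries had an r of 0.106, 0.0415 and 0.265, and those of differently numbered libraries ran from -0.230 to 0.125. Whether same-numbered libraries were paired was not tested and is not given by the labels.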

Other observations

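Of the 50 listed genes with an annotated 3′ untranslated region, 4 held the Pumilio element, namely Pum2, Cd200r2, Hsd3b2 and Kcnj16, against 23.2% of 21013 genes of the annotation. They were 4 of the 22 such genes with a lower mean in Pum2-/- mice and 0 of the 28 with a higher mean. No test was made of this, and untranslated regions differ in length between genes.

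All 15 genes above 0 and under 0.3 in Pum2-/- replicate 3 had a lower mean in Pum2-/- mice, and 14 of them lay among the 29 genes without overlap. Those 29 were 42.6% of the 68 listed genes and all came from the 34 with a lower mean. The 15 were picked for a Pum2-/- value near 0 among genes selected as different, so nothing is read from either count. Across these 15 genes the value had a Spearman's rho of 0.375 with the summed WT value, beside a rho of 1 with the summed value of the other Pum2-/- libraries. Which step of the processing gave these values was not tested.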
